A study of Mus musculus with 15 samples.

Results

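The genes of cholesterol synthesis and sterol regulation were followed across 15 RNA-seq libraries of mouse primary lung fibroblasts. The set holds 30 genes, taken from a fixed list and matched by symbol to the 48440 genes of the count table. It comprises 7 enzymes of the mevalonate steps, 11 enzymes of the squalene and sterol steps, 5 genes of the SREBP pathway, 2 genes of sterol transport and storage, 2 LXR receptors and 3 genes of LXR-driven efflux and receptor turnover. All 30 had enough reads to be tested.

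Cells make cholesterol from acetyl-CoA through mevalonate, farnesyl diphosphate, squalene and lanosterol. When membranes of the endoplasmic reticulum are low in sterol, Scap carries SREBP transcription factors to the Golgi, where they are cut and released to switch on the enzymes. When sterol is plentiful, Insig proteins hold Scap back, while oxysterols switch on the LXR receptors, which drive export through Abca1 and Abcg1 and degradation of lipoprotein receptors through Mylip. In the lung, fibroblasts that store lipid supply epithelial cells that make surfactant, and macrophages that clear surfactant lipid are rich in Abcg1 and Nr1h3.

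The 5 groups held 3 libraries each, all from C57BL/6 cells grown in 3% oxygen with 15% fetal bovine serum. Atm encodes a kinase of the DNA damage response. Unirradiated Atm+/+ and Atm-/- cells were each sampled at passage 2 and passage 8, from 3 strains per genotype. The fifth group was Atm+/+ cells labelled passage 2, exposed to 10 Gy of X-rays and harvested 10 days later to obtain stress-induced premature senescence. No unirradiated culture held for the same 10 days was analysed here, so time in culture and irradiation cannot be told apart. The labels do not say whether the 3 strains of a genotype came from 3 animals, so p-values measure the spread between these cultures.

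Library totals ranged from 13645592 to 39210772 counts. Atm counts were low in every group (27 to 85 reads per library) and overlapped between the genotypes, so they give no check of the genotype labels, which are used as deposited. Summed fibroblast markers were high in all libraries (11918 to 43519.7 CPM, read counts scaled to a common library size) and lowest in Atm-/- cells at passage 8. A pair of libraries stood apart: replicate 3 of Atm+/+ at passage 2, with 17526 genes detected, and replicate 3 of Atm-/- at passage 8, with 15037, against 21389 to 24302 genes in the other 13. Mylip had no read in either, and Abcg1 had none and Dhcr7 had 1 read in the second. Counts of genes that changed are therefore given for all 15 libraries and for the 13 without this pair. Each was fitted with edgeR's quasi-likelihood test over all genes (18167 genes in 15 libraries, 18495 in 13) with Benjamini-Hochberg adjustment. A gene is said to have risen or fallen when its adjusted p was below 0.05 in the 15-library fit, unless the 13-library fit is named.

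Promoter sequences show what the enzyme genes share apart from their levels. RefSeq promoters on GRCm38.p6, running from 250 bases before to 50 bases after the start, were found for 25 of the 30 genes. No entry was found for Fdps, Fdft1, Sqle, Stard4 and Abcg1. Both strands were searched for the sterol response element letters TCACNCCAC, the inverted CCAAT box ATTGG that binds NF-Y, and the GC box GGGCGG that binds Sp1, factors known to act beside SREBP. ATTGG occurred in 20 of the 25 promoters and in 14 of the 15 enzyme promoters, against 42.5% of the 11663 tested genes with a promoter entry and 41.1% of all 27025 genes in the table. GGGCGG occurred in 22 of 25 and in 14 of the 15 enzyme promoters, against 65.6% of tested genes and 38.2% of all genes. TCACNCCAC occurred in 1 of 25, Hmgcs1, against 1.43% of tested genes. The search took exact letters, so it cannot show that the other promoters lack a sterol response element. The LXR direct repeat spaced by 4, searched by exact letters, occurred in none of the 25. It also occurred in 0 of the 11663 tested genes and in 0.0148% of all genes. A search this strict finds almost no gene, so it cannot show whether these promoters hold or lack LXR sites.

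The 220 bases directly before the start are shown for 5 genes whose levels moved differently: Hmgcs1 and Mvd of the mevalonate steps, Insig1, Soat1 and Abca1. They lie at chr13:119690131-119690350 (plus strand), chr8:122443423-122443642 (minus), chr5:28071192-28071411 (plus), chr1:156474329-156474548 (minus) and chr4:53159896-53160115 (minus). Each is written 5′ to 3′ on the gene's strand, and capitals mark matches to the 3 motifs on either strand.
Hmgcs1: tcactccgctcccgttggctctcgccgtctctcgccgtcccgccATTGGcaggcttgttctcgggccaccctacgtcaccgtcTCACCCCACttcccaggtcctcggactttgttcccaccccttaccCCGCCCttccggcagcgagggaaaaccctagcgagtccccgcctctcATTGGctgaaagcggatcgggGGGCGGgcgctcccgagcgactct
Mvd: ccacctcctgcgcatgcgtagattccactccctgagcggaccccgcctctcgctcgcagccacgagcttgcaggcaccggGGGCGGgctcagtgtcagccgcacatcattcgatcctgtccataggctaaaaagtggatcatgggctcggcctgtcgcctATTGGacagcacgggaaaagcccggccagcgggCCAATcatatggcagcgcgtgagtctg
Insig1: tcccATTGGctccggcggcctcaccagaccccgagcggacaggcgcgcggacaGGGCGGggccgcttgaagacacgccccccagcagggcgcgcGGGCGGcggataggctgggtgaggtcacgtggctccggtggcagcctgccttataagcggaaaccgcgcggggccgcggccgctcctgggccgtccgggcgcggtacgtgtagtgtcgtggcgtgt
Soat1: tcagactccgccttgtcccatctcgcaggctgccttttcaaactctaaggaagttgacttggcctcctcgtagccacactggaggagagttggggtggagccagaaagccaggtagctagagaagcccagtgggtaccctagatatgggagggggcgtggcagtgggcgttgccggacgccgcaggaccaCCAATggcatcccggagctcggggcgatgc
Abca1: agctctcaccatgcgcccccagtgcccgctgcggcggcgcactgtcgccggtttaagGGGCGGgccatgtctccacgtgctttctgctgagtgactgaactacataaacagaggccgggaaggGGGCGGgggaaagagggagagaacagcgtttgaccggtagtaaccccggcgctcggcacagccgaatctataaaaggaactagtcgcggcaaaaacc
Within these stretches Hmgcs1 held the sterol response element letters from 137 bases before the start, ATTGG at 176 and 45 bases and GC boxes at 92 and 24 bases. Mvd held 2 CCAAT boxes within 60 bases of the start and Insig1 held 1, at 216 bases. Soat1 held 1 CCAAT box, 30 bases before the start, and Abca1 held 2 GC boxes and no CCAAT box. These are matches of letters, not measured binding.

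Per unit of length, the genes spanned a wide range. By median TPM (a per-length scale, as deposited) over the 15 libraries, Nr1h2, which encodes LXRβ, was highest at 84.3, followed by Pmvk at 46.6 and Msmo1 at 44.2. The SREBP factors Srebf2 and Srebf1 stood close together at 32.3 and 32.1. Abca1 (5.32), Stard4 (4.57), Mylip (4.09) and Abcg1 (2.99) were lowest, so the 3 efflux and turnover genes sat below every enzyme.

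Irradiated cells carried less mRNA for most of the synthesis pathway than passage 2 cells. Of the 30 genes, 13 fell and 2 rose, where 16.5% of all genes fell and 11.0% rose. Those that fell were 6 of 7 mevalonate enzymes, 5 of 11 squalene and sterol enzymes, Insig1 and Nr1h3. Soat1 and Sc5d rose. The median log2 fold change was -1.24 for the mevalonate steps and -0.52 for the squalene and sterol steps, against -0.01 for all genes. Without the pair of libraries, 20 fell and 4 rose, where 23.3% and 22.9% of all genes did; Idi1, Lss, Msmo1, Nsdhl, Dhcr7, Stard4 and Abca1 joined those that fell, and Insig2 and Scap those that rose.

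Serial passage of Atm+/+ cells also lowered mevalonate enzymes, with 11 members falling and 3 rising where 13.5% and 9.80% of all genes did. The members that fell were 6 mevalonate enzymes (median of the 7, -0.89), Fdft1, Tm7sf2, Ebp, Nr1h3 and Abcg1, and those that rose were Soat1, Sc5d and Insig2. Over 13 libraries 13 fell and 3 rose (all genes, 20.3% and 19.8%), with Dhcr7 and Abca1 added. Both comparisons use the same 3 passage 2 libraries as their control, so their resemblance is not independent. In CPM, replicate 3 of these controls was the highest of the 3 for each of Hmgcs1, Mvk, Pmvk, Mvd, Acat2, Fdft1, Tm7sf2, Ebp and Nr1h3. On TPM it was the highest only for Mvk, Fdft1, Ebp and Nr1h3, and the lowest for Pmvk, Mvd, Acat2 and Tm7sf2. The 13-library values show the changes without this library.

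Against passage 8 cells, which do not share the passage 2 controls, irradiated cells had 5 members lower and none higher, where 2.59% of all genes fell and 4.30% rose. Insig1, Soat1, Sqle, Sc5d and Cyp51 fell. No mevalonate enzyme passed, although all 7 estimates on counts were negative (median -0.41). On the deposited TPM scale the irradiated mean exceeded the passage 8 mean for Mvd (27.2 against 25.4), Mvk (25.2 against 24.7) and Hmgcs1 (20.4 against 20.3). It was below the passage 8 mean for Acat2, Pmvk, Idi1 and Fdps. At an unadjusted p below 0.05 the count was 9 members, 8 of them lower, beside 17.5% of all genes. In the 13 libraries 11 fell and Abcg1 rose (all genes, 12.3% and 13.2%); the further members that fell were Idi1, Pmvk, Fdft1, Msmo1, Hsd17b7 and Srebf2. The count also depended on the fit, with 15 members passing when only the 2 groups compared were fitted and 2 passing with limma on log2(TPM + 1).

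Few members passed between the genotypes. At passage 2 no member passed in the 15 libraries (all genes, 0.628% rose and 0.341% fell), and 10 had an unadjusted p below 0.05 (edgeR), all lower in Atm-/-, beside 16.1% of all genes. DESeq2 called 3. In the 13 libraries Hmgcs1, Pmvk, Tm7sf2, Hsd17b7, Dhcr7 and Nr1h3 were lower in Atm-/- and none was higher (all genes, 2.08% fell and 3.27% rose). At passage 8 Insig1 was higher and Sc5d and Srebf2 lower in Atm-/- (all genes, 5.03% higher and 4.29% lower). Without the pair, Ebp joined Insig1, and Pmvk, Cyp51 and Hsd17b7 joined Sc5d and Srebf2 (all genes, 13.3% higher and 11.8% lower). No member passed at passage 8 when only the 2 groups compared were fitted. Of 10 fibroblast markers, 8 were lower in Atm-/- at passage 8 and 1 was higher (Vim, 2934 to 3802 CPM against 2037 to 2078). The summed level of the 10 was 11918 to 17342 CPM against 37031 to 43519.7. Of the mesothelial markers 2 of 3 tested were higher (list sum 10.1 to 46.5 CPM against 2.75 to 4.28), and of the endothelial markers 3 of 7. Of 21 macrophage markers 7 were lower. The part of these marker differences in the member results was not tested.

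With passage of Atm-/- cells no enzyme passed. Soat1 and Insig1 rose and Abcg1 fell, where 4.76% of all genes rose and 8.25% fell. The enzymes stayed near the middle of all genes (median of the 18, -0.04, against -0.08 for all genes). In the 13 libraries 4 rose and 6 fell (all genes, 12.8% and 14.4%): Msmo1 and Insig2 joined the first, and Pmvk, Tm7sf2, Dhcr7, Abca1 and Mylip the second. On log2(TPM + 1) none rose and 4 fell. The difference of the passage effects, Atm-/- minus Atm+/+, was tested directly. Insig1 and Nr1h3 were above 0 and Sc5d was below it, where 2.46% and 1.97% of all genes passed in these directions. Over 13 libraries Mvk, Mvd and Ebp were added above 0 (all genes, 6.54% above and 7.28% below). The median difference of the 7 mevalonate enzymes was 0.83 in 15 libraries and 0.53 in 13, against -0.14 and -0.02 for all genes. Leaving out single libraries gave from 0 to 10 members.

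**Figure D1:**
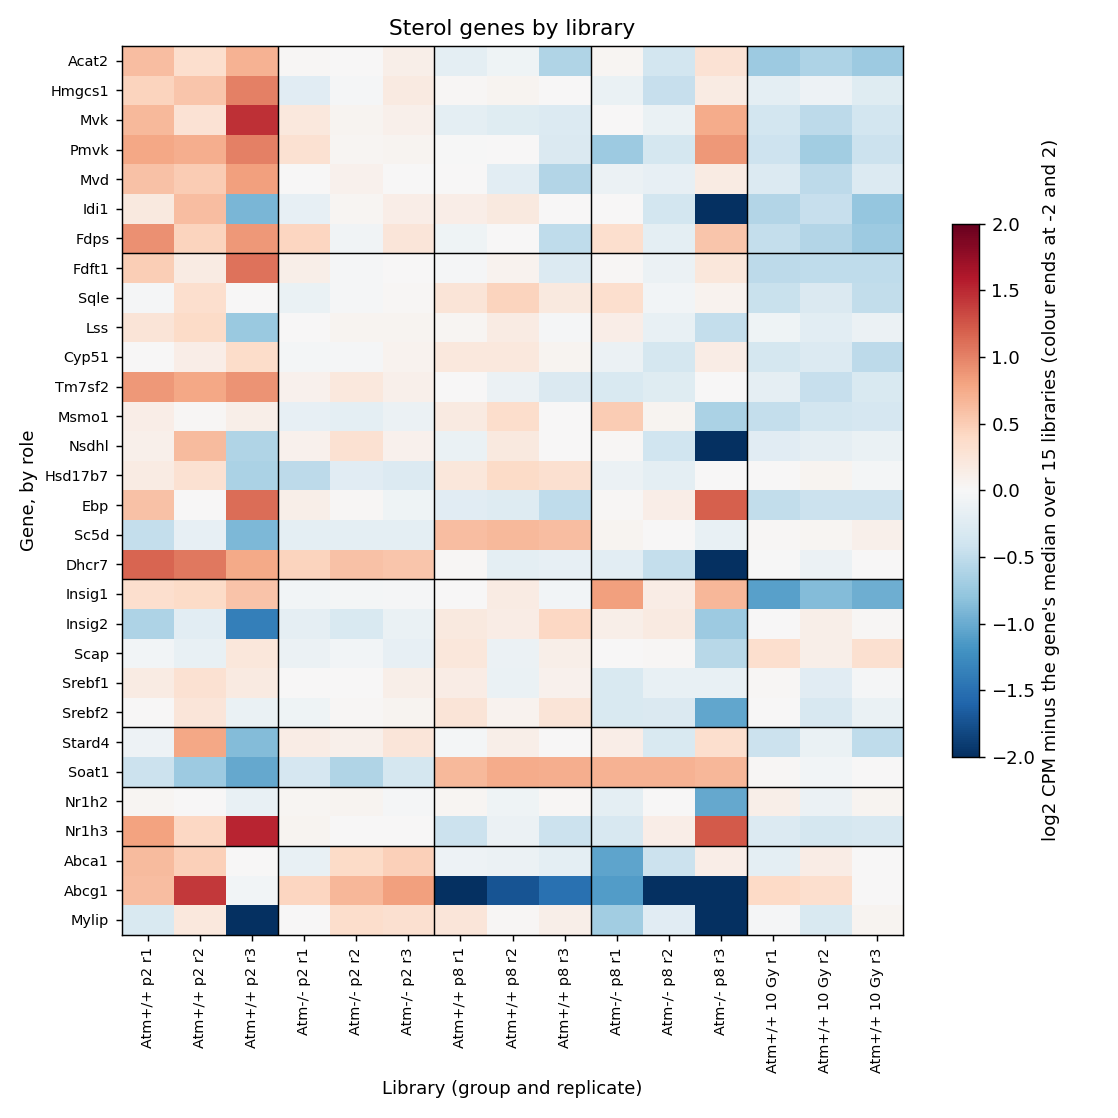
Level of each of the 30 genes (rows, by role) in each of the 15 libraries (columns, by group), as log2 CPM minus the gene's own median over the 15 libraries; red is above the median and blue below. The mevalonate rows are red in the 3 Atm+/+ passage 2 libraries, apart from Idi1 in replicate 3, and blue in the 3 irradiated libraries.

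The median of all genes differed between the fits on counts and on TPM, which bears on the enzyme values. These fits also differed in model and filter, so scale was not varied alone. On log2(TPM + 1) the median of all genes was 0.32 above 0 for irradiation against passage 2, 0.14 for irradiation against passage 8, 0.19 for passage in Atm+/+ and -0.32 for passage in Atm-/-. It was 0.22 and -0.29 for genotype at passage 2 and 8, and -0.50 for the difference of passage effects. Relative to that median, the 18 enzymes were lower after irradiation by -0.80 on TPM and by -0.92 on counts, and in passage of Atm+/+ by -0.60 and -0.69. The raw median of the squalene and sterol enzymes with passage in Atm+/+ changed sign between the scales, -0.01 on counts and 0.21 on TPM. Among the calls of all genes, the upward share was 40.1% on counts and 71.8% on TPM for irradiation against passage 2, and 62.4% and 79.0% against passage 8. It was 42.1% and 52.9% for passage in Atm+/+, and 36.6% and 14.2% in Atm-/-. For genotype it was 64.8% and 54.4% at passage 2 and 53.9% and 26.8% at passage 8, and for the difference of passage effects 55.5% and 21.2%.

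The mevalonate steps build isopentenyl units from acetyl-CoA. Levels below are in CPM, normalised for library size but not gene length, listed for replicates 1, 2 and 3 or as a range. Hmgcs1, the HMG-CoA synthase, stood at 56.1, 60.5 and 83.2 in Atm+/+ passage 2 cells, 35.1 to 38.6 in irradiated cells, 41.5 to 42.8 at passage 8, 35.3 to 47.0 in Atm-/- passage 2 cells and 30.1 to 46.7 in Atm-/- passage 8 cells. Among the promoters searched, only that of Hmgcs1, shown above, held the exact sterol response element letters. In CPM every Atm+/+ passage 2 library lay above every library of the other 4 groups. On TPM Atm+/+ passage 2 replicate 1 and Atm-/- passage 2 replicate 3 both read 23.3. Hmgcs1 fell by 0.86 ± 0.18 (log2 ± SE, adjusted p = 0.00459, edgeR) with irradiation and by 0.66 ± 0.18 (adjusted p = 0.0182) with passage in Atm+/+. In the 13 libraries these were -0.62 and -0.45. The passage call was lost without replicate 3 of Atm+/+ passage 2 (-0.44, adjusted p = 0.0883) and without any 1 of the Atm+/+ passage 8 libraries (adjusted p = 0.0525 to 0.0683). On log2(TPM + 1) neither call passed (adjusted p = 0.0739 and 0.0939).

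Mvd, which removes a carboxyl group to form isopentenyl diphosphate, read 50.1, 47.1 and 58.7 CPM in Atm+/+ passage 2 cells and 27.3, 23.1 and 27.4 in irradiated cells. At passage 8 it read 33.4, 28.8 and 22.2 in Atm+/+ and 30.9, 29.6 and 37.3 in Atm-/- cells, and in Atm-/- passage 2 cells 33.3 to 35.2. The irradiated and the Atm+/+ passage 8 libraries overlapped each other and lay wholly below Atm+/+ passage 2. Mvd fell with irradiation (log2 fold change -1.0 ± 0.16, adjusted p = 0.000994, edgeR) and by 0.89 ± 0.16 with passage (adjusted p = 0.00156), and both calls held under all alternatives run.

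Acat2, the cytosolic acetoacetyl-CoA thiolase that opens the route, read 54.8, 44.9 and 57.3 CPM at Atm+/+ passage 2, 21.5, 23.2 and 21.5 after irradiation, and 31.1, 33.6 and 23.4 at Atm+/+ passage 8. In Atm-/- cells it read 35.6 to 38.4 at passage 2 and 27.6 to 43.6 at passage 8. The irradiated libraries were the lowest 3 of the 15 in CPM. On TPM irradiated replicate 2 (20.5) lay above Atm+/+ passage 8 replicate 3 (18.6). Acat2 fell by 1.24 ± 0.18 with irradiation (adjusted p = 0.000465, edgeR) and by 0.84 ± 0.18 with passage in Atm+/+ (adjusted p = 0.00438).

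The kinases Mvk and Pmvk followed. Mvk read 65.1, 50.8 and 114 CPM at Atm+/+ passage 2, 28.9 to 32.4 after irradiation, 34.5 to 36.4 at Atm+/+ passage 8, 43.1 to 47.9 at Atm-/- passage 2 and 41.4, 38.0 and 69.2 at Atm-/- passage 8. Pmvk read 58.8, 57.2 and 69.6 at Atm+/+ passage 2, 21.2 to 26.0 after irradiation, 28.2 to 34.5 at Atm+/+ passage 8, 35.4 to 42.7 at Atm-/- passage 2 and 20.9, 27.1 and 63.0 at Atm-/- passage 8. For both genes the library highest in CPM within its group was the one with few genes detected, in Atm+/+ passage 2 and in Atm-/- passage 8. On TPM that Atm+/+ passage 2 library was the lowest of its group for Pmvk (66.7, against 70.8 and 85.0). With irradiation Mvk fell by 1.29 ± 0.27 (adjusted p = 0.0042, edgeR) and Pmvk by 1.35 ± 0.31 (adjusted p = 0.00688). The 13-library estimates were -0.85 and -1.21. With passage in Atm+/+ Mvk fell by 1.12 ± 0.27 (adjusted p = 0.00907; -0.69 in 13 libraries), and Pmvk by 0.94 ± 0.30 (adjusted p = 0.0392), a call lost with the strain number as a block (adjusted p = 0.0576) and when any 1 of 11 libraries was left out (adjusted p = 0.0608 to 0.143). Without replicate 3 of Atm+/+ passage 2 alone, Mvk was -0.83 with irradiation and -0.68 with passage.

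Idi1 and Fdps complete these steps. Fdps, the farnesyl diphosphate synthase, read 33.9, 24.5 and 32.6 CPM at Atm+/+ passage 2, 10.9 to 12.8 after irradiation, 12.6 to 17.9 at Atm+/+ passage 8, 17.1 to 24.1 at Atm-/- passage 2 and 15.7 to 26.6 at Atm-/- passage 8. It fell by 1.35 ± 0.22 with irradiation (adjusted p = 0.00106, edgeR) and by 0.94 ± 0.22 with passage in Atm+/+ (adjusted p = 0.00782). Idi1, the isopentenyl diphosphate isomerase, was the exception among the 7. It read 19.8, 26.7 and 9.14 at Atm+/+ passage 2, 10.1 to 12.7 after irradiation, 17.5 to 19.8 at Atm+/+ passage 8, 15.4 to 19.1 at Atm-/- passage 2 and 17.4, 13.5 and 2.19 at Atm-/- passage 8. The low values were the libraries with few genes detected; with them the irradiation estimate was -0.70 ± 0.50 (adjusted p = 0.312), and in the 13 libraries -0.97 ± 0.16 (adjusted p = 0.000334).

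**Figure D2:**
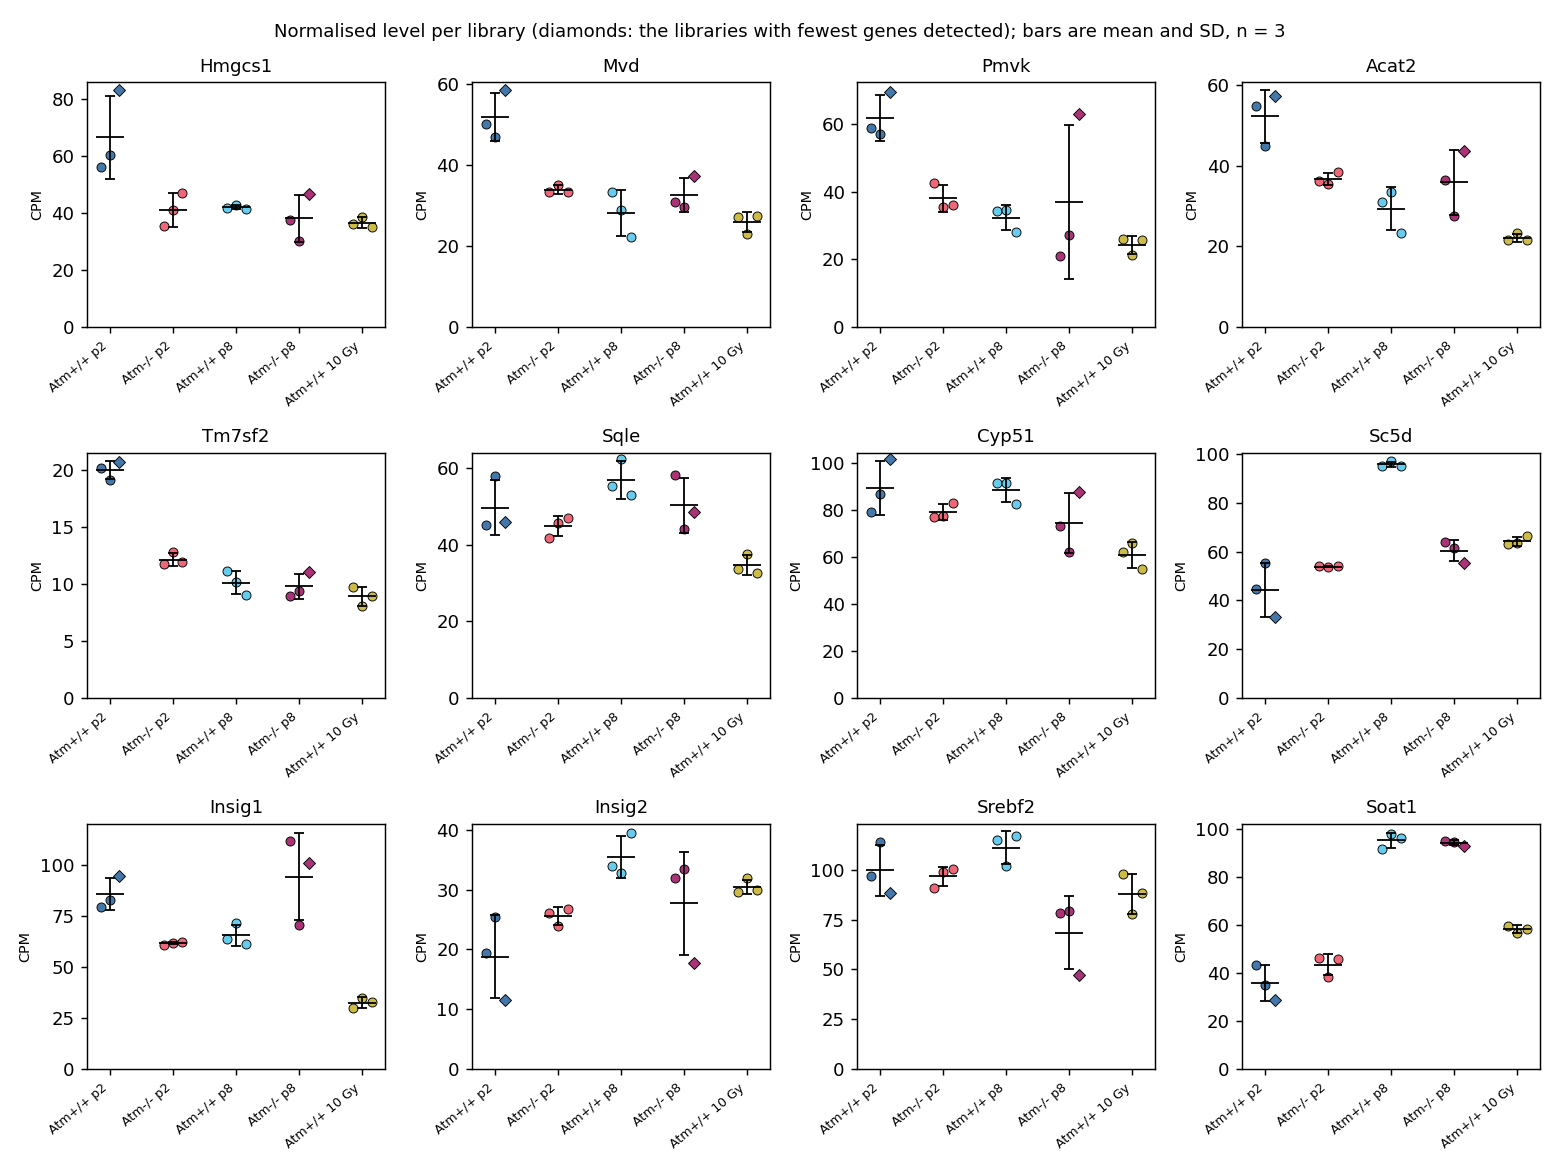
CPM of 12 sterol genes (vertical axis, from 0) in the 5 groups; points are libraries, diamonds the pair with few genes detected, bars the mean and SD of 3. The irradiated points lie below the Atm+/+ passage 2 points for Hmgcs1, Mvd, Pmvk, Acat2, Tm7sf2, Sqle, Cyp51 and Insig1, and above them for Sc5d, Insig2 and Soat1.

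The squalene and sterol steps were less uniform. Fdft1, the squalene synthase, read 122, 96.8 and 185 CPM at Atm+/+ passage 2, 60.3 to 60.7 after irradiation, 71.0 to 90.8 at Atm+/+ passage 8, 84.8 to 93.5 at Atm-/- passage 2 and 79.5 to 102 at Atm-/- passage 8. It fell by 1.15 ± 0.20 with irradiation (adjusted p = 0.0014, edgeR; -0.81 in 13 libraries) and by 0.71 ± 0.19 with passage in Atm+/+ (adjusted p = 0.0189; -0.39 in 13 libraries). The passage call was lost with the block (adjusted p = 0.0624), without replicate 3 of Atm+/+ passage 2 (-0.38, adjusted p = 0.0892) and without replicate 1 or 3 of Atm+/+ passage 8 (0.0533 and 0.0932). Tm7sf2, a sterol reductase of the nuclear envelope and endoplasmic reticulum, read 20.2, 19.1 and 20.7 at Atm+/+ passage 2 and 8.02 to 12.8 over all other libraries. It fell by 1.17 ± 0.16 with irradiation (adjusted p = 0.000342) and by 0.98 ± 0.16 with passage (adjusted p = 0.00066), without overlap between groups. Ebp, the sterol isomerase, read 65.0, 43.1 and 93.1 at Atm+/+ passage 2, 30.7 to 32.1 after irradiation, 30.4 to 36.7 at Atm+/+ passage 8, 40.4 to 46.6 at Atm-/- passage 2 and 43.6, 47.1 and 99.1 at Atm-/- passage 8, with both peaks in the libraries with few genes detected. It fell by 1.09 ± 0.30 with irradiation (adjusted p = 0.017; -0.73 in 13 libraries) and by 0.96 ± 0.30 with passage in Atm+/+ (adjusted p = 0.0323; -0.63 in 13 libraries; adjusted p = 0.0687 with the block). Leaving out replicate 3 of Atm+/+ passage 2 gave -0.71 (adjusted p = 0.0962) and -0.62 (adjusted p = 0.162). The irradiation call of Ebp was also lost without any 1 irradiated library (0.0661 to 0.0735), and its passage call when any 1 of 11 libraries was left out (0.0521 to 0.162).

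Sqle and Cyp51 did not fall with passage, and were lower in irradiated cells than in either Atm+/+ control. Sqle, the squalene epoxidase and a slow step of the route, read 45.0, 57.8 and 46.0 CPM at Atm+/+ passage 2, 55.3, 62.3 and 52.8 at passage 8, 33.7, 37.6 and 32.6 after irradiation, 41.8 to 46.9 at Atm-/- passage 2 and 44.1 to 58.1 at Atm-/- passage 8. The irradiated libraries were the lowest 3 of the 15. Sqle fell by 0.71 ± 0.14 against passage 8 (adjusted p = 0.00631, edgeR) and by 0.52 ± 0.14 against passage 2 (adjusted p = 0.0163). Cyp51, the lanosterol demethylase, read 79.3, 87.0 and 102 at Atm+/+ passage 2, 91.5, 91.7 and 82.6 at passage 8, 62.2, 65.9 and 54.9 after irradiation, 77.0 to 83.2 at Atm-/- passage 2 and 62.3 to 87.8 at Atm-/- passage 8. It fell by 0.54 ± 0.14 against passage 8 (adjusted p = 0.0354; 0.0755 with the block) and by 0.55 ± 0.14 against passage 2 (adjusted p = 0.013). On log2(TPM + 1) neither gene passed against passage 2 (adjusted p = 0.803 for Sqle and 0.562 for Cyp51) or against passage 8 (0.322 and 0.289). Without replicate 2 of Atm+/+ passage 2, Sqle against passage 2 was -0.33 (adjusted p = 0.0824), and without any 1 irradiated library its adjusted p was 0.0525 to 0.107. Cyp51 against passage 2 was lost without irradiated replicate 1 or 3 or Atm+/+ passage 2 replicate 3 (0.0646 to 0.0969), and against passage 8 when any 1 of 9 libraries was left out (0.0632 to 0.196).

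Sc5d, the sterol desaturase that acts late in the route, moved opposite to most enzymes. It read 44.5, 55.3 and 33.0 CPM at Atm+/+ passage 2, 95.0, 97.1 and 95.1 at Atm+/+ passage 8, 63.0, 63.4 and 66.2 after irradiation, 53.6 to 53.9 at Atm-/- passage 2 and 63.9, 61.6 and 55.4 at Atm-/- passage 8. The Atm+/+ passage 8 libraries were the highest 3 of the 15, with no overlap with any other group. Sc5d rose by 1.11 ± 0.15 with passage in Atm+/+ (adjusted p = 0.00017, edgeR) and by 0.53 ± 0.15 with irradiation (adjusted p = 0.0199), and irradiated cells stayed 0.58 ± 0.15 below passage 8 (log2 -0.58, adjusted p = 0.0338; 0.0837 with the block). In Atm-/- cells the passage estimate was 0.17 ± 0.15 (adjusted p = 0.515). The passage effects differed by -0.95 ± 0.21 (adjusted p = 0.0318; 0.0826 with the block), and Atm-/- was below Atm+/+ at passage 8 by -0.67 ± 0.15 (adjusted p = 0.0168; 0.0588 on log2(TPM + 0.1)). The genotype call was lost without any 1 Atm+/+ passage 8 library (0.0594 to 0.0634), the irradiation rise without replicate 1 of Atm+/+ passage 2 (0.0556), the difference without any 1 of 10 libraries (0.0534 to 0.0922) and the fall against passage 8 without any 1 of 12 (0.0502 to 0.167); on log2(TPM + 1) the last had an adjusted p of 0.595.

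Dhcr7, the reductase that completes cholesterol, gave different calls with and without the pair of libraries with few genes detected. It read 30.3, 27.9 and 22.7 CPM at Atm+/+ passage 2, 18.5 to 20.2 at Atm-/- passage 2, 11.8 to 13.8 at Atm+/+ passage 8, 12.4 to 13.5 after irradiation, and 11.6, 9.70 and 0.0877 at Atm-/- passage 8. Over 15 libraries no comparison passed (SE 0.65 to 0.92), whereas in 13 it fell by 1.19 ± 0.11 with passage in Atm+/+ (adjusted p = 3.14e-06, edgeR), by 0.85 ± 0.12 with passage in Atm-/- and by 1.11 ± 0.11 with irradiation. The other enzymes, Lss (lanosterol synthase), Msmo1, Nsdhl and Hsd17b7 (which remove methyl groups and reduce the ring), passed no comparison in 15 libraries. Their estimates for irradiation against passage 2 ran from -0.49 (Msmo1) to 0.00 (Hsd17b7).

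Of the SREBP pathway genes, Insig1, Insig2 and Srebf2 passed in at least 1 comparison. Insig1, itself an SREBP target that retains Scap, read 79.8, 83.1 and 94.6 CPM at Atm+/+ passage 2, 29.9, 35.0 and 32.6 after irradiation, 63.6, 71.6 and 61.5 at Atm+/+ passage 8, 61.1, 62.0 and 62.2 at Atm-/- passage 2 and 112, 70.5 and 101 at Atm-/- passage 8. The irradiated libraries were far below all others. Insig1 fell by 1.40 ± 0.16 against passage 2 (adjusted p = 8.61e-05, edgeR) and by 1.01 ± 0.16 against passage 8 (adjusted p = 0.0011), and both calls held under all alternatives run. With passage Insig1 rose by 0.62 ± 0.16 in Atm-/- (adjusted p = 0.0173) and was -0.39 ± 0.15 in Atm+/+ (adjusted p = 0.0856). The difference of 1.00 ± 0.22 passed (adjusted p = 0.0284; 0.0719 with the block). Atm-/- exceeded Atm+/+ at passage 8 by 0.53 ± 0.16 (adjusted p = 0.0482), but the groups overlapped in that replicate 2 of Atm-/- (70.5) lay below the highest Atm+/+ library (71.6). The call was lost with the replicate number as a block across both genotypes (adjusted p = 0.0733, edgeR). Equal numbers in Atm+/+ and Atm-/- do not mark the same strain. The genotype call was also lost when any 1 of 12 libraries was left out (0.0667 to 0.184). The difference was lost without any 1 of 10 libraries (0.0506 to 0.0989), and the rise in Atm-/- without any 1 Atm-/- passage 2 library or replicate 1 of Atm-/- passage 8 (0.0528 to 0.0547). On log2(TPM + 1) these 3 results in Atm-/- cells did not pass (adjusted p = 0.395 for passage, 0.262 for the difference and 0.507 for genotype).

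Insig2, the paralogue not driven by SREBP, read 19.4, 25.5 and 11.5 CPM at Atm+/+ passage 2, 34.0, 32.9 and 39.6 at Atm+/+ passage 8, 29.6 to 31.9 after irradiation, 24.0 to 26.8 at Atm-/- passage 2 and 31.9, 33.5 and 17.8 at Atm-/- passage 8. It rose by 0.92 ± 0.26 with passage in Atm+/+ (adjusted p = 0.0233, edgeR; 0.0593 on log2(TPM + 1); 0.0544 to 0.0917 without replicate 1 or 3 of either group) and was 0.70 ± 0.26 with irradiation (adjusted p = 0.0625; 0.49 ± 0.12 in 13 libraries, adjusted p = 0.00533). With passage in Atm-/- it was 0.12 ± 0.26 (adjusted p = 0.802), and 0.38 ± 0.12 in 13 libraries (adjusted p = 0.0307). Srebf2, the factor most tied to cholesterol genes, read 97.1, 114 and 88.7 at Atm+/+ passage 2, 115, 102 and 117 at passage 8, 97.9, 77.8 and 88.3 after irradiation, 91.2 to 100.4 at Atm-/- passage 2 and 78.5, 79.6 and 47.1 at Atm-/- passage 8. At passage 8 it was lower in Atm-/- by -0.70 ± 0.18 (adjusted p = 0.0306; -0.47 in 13 libraries, adjusted p = 0.00768), with no overlap, a call lost without any 1 Atm+/+ passage 8 library (0.0626 to 0.118) and on log2(TPM + 1) (0.0625). With irradiation its estimate was -0.19 ± 0.18 (adjusted p = 0.461).

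Srebf1, which governs fatty acid genes, ranged only from 66.1 to 99.9 CPM. It read 91.0, 99.9 and 92.2 at Atm+/+ passage 2, 90.0, 73.8 and 86.4 at passage 8, 82.9, 69.6 and 80.0 after irradiation, 81.3, 81.1 and 88.7 at Atm-/- passage 2 and 66.1, 73.2 and 73.4 at Atm-/- passage 8. It passed no comparison, and its irradiation estimate was -0.28 ± 0.12 (adjusted p = 0.0854). Scap, the escort, passed none in 15 libraries, with estimates from -0.23 to 0.24.

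**Figure D3:**
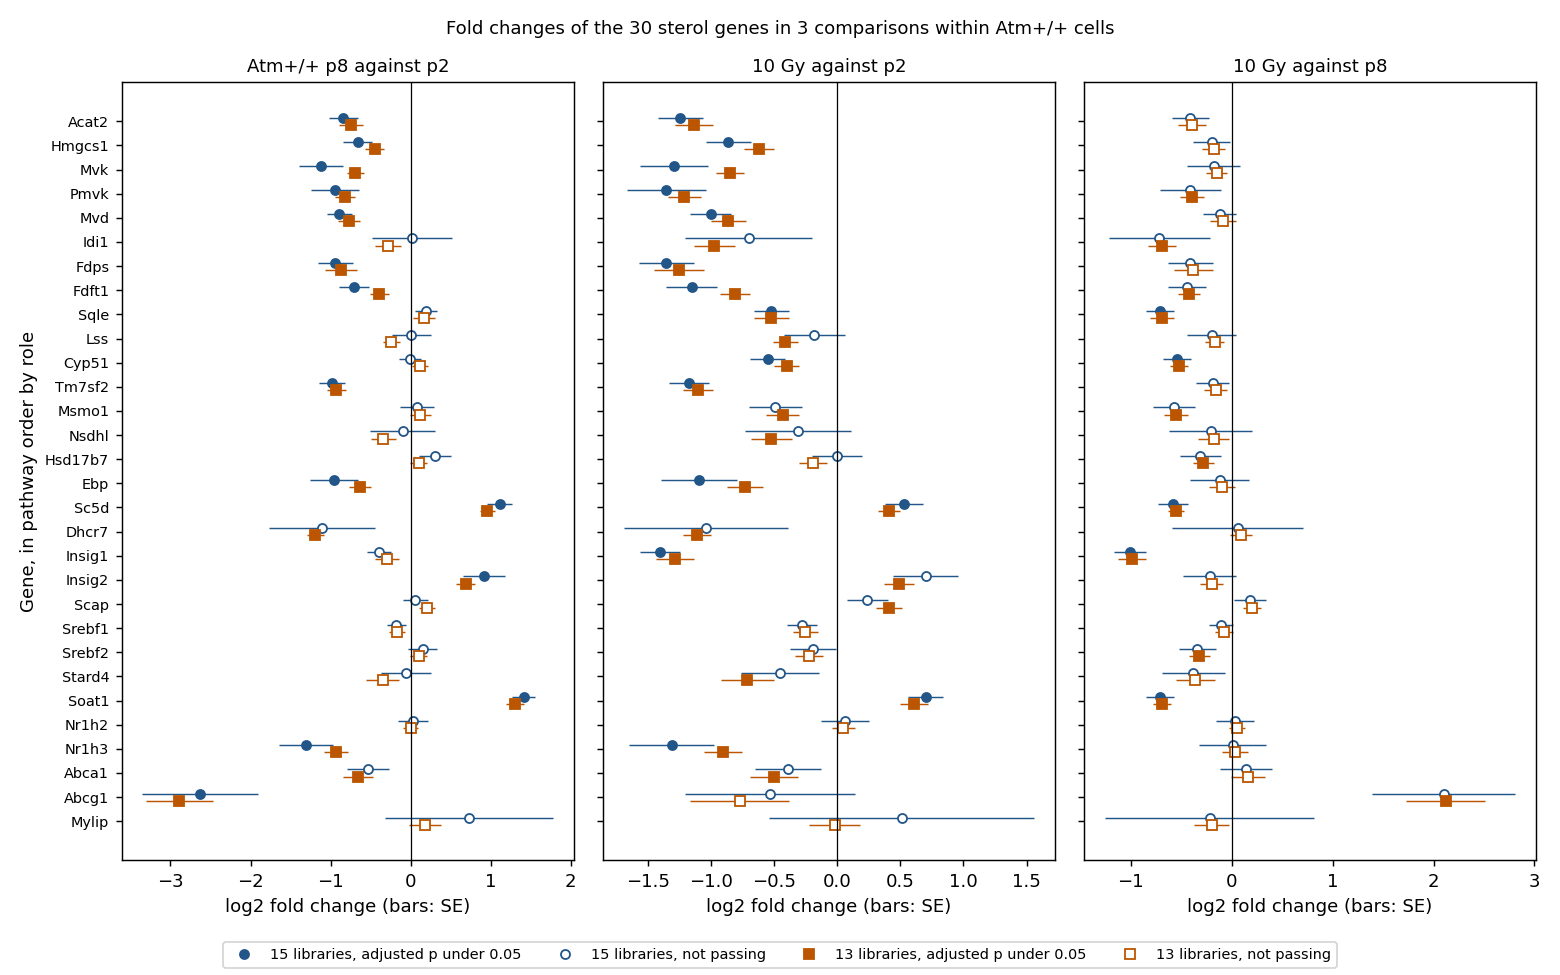
Log2 fold change with SE (horizontal) of each gene in pathway order (vertical) for passage in Atm+/+ and for irradiation against passage 2 and passage 8; circles are 15 libraries, squares 13, filled where adjusted p was under 0.05. The 7 mevalonate genes lie left of 0 in the first 2 panels, apart from Idi1 (0.02) for passage in 15 libraries, and Insig1 is the most negative gene against passage 8.

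In sterol storage and transport, Soat1 esterifies cholesterol for lipid droplets. It read 43.5, 35.1 and 28.6 CPM at Atm+/+ passage 2, 46.2, 38.5 and 45.8 at Atm-/- passage 2, 59.8, 56.6 and 58.5 after irradiation, 91.7, 97.9 and 96.5 at Atm+/+ passage 8 and 95.2, 94.8 and 93.1 at Atm-/- passage 8. In CPM the groups stood in 3 tiers without overlap, with passage 2 lowest, irradiated cells between and passage 8 highest. On TPM, Atm-/- passage 8 replicate 3 (11.3) lay below the irradiated libraries (13.4 to 13.5). Soat1 rose by 1.41 ± 0.14 with passage in Atm+/+ (adjusted p = 1.35e-05, edgeR), by 1.12 ± 0.14 in Atm-/- (adjusted p = 0.000143; 0.71 on log2(TPM + 1), adjusted p = 0.0512) and by 0.70 ± 0.14 with irradiation (adjusted p = 0.00347). Irradiated cells lay 0.71 below passage 8 (log2 -0.71 ± 0.14, adjusted p = 0.00619; 0.29 on log2(TPM + 1)). Stard4, a carrier of sterol between membranes, passed no comparison in 15 libraries and had an irradiation estimate of -0.45 ± 0.31 (-0.71 ± 0.21 in 13).

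The LXR receptors differed from each other. Nr1h2 passed no comparison and ranged from 91.4 to 110.1 CPM except in Atm-/- passage 8 replicates 1 and 3, at 88.5 and 50.2. Nr1h3, which encodes LXRα, read 47.4, 35.9 and 77.4 at Atm+/+ passage 2, 19.9 to 24.7 at passage 8, 22.1, 21.2 and 21.5 after irradiation, 27.8, 26.9 and 27.0 at Atm-/- passage 2 and 21.5, 29.7 and 63.4 at Atm-/- passage 8. Its highest library in each of the 2 widest groups was the one with few genes detected. It fell by 1.31 ± 0.34 with passage in Atm+/+ (adjusted p = 0.0138, edgeR) and by 1.31 ± 0.34 with irradiation (adjusted p = 0.0129), and in 13 libraries by 0.93 and 0.90. Neither call held without replicate 3 of Atm+/+ passage 2 (adjusted p = 0.0657 and 0.0701). The first was also lost without replicate 1 or 3 of Atm+/+ passage 8 (0.0547 and 0.0616), and the second without any 1 irradiated library (0.0539 to 0.0579). The passage effects differed by 1.79 ± 0.47 (adjusted p = 0.0497; 0.86 ± 0.21 in 13 libraries, adjusted p = 0.0188; 0.114 with the block; 0.0517 to 0.139 when any 1 of 12 libraries was left out).

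Abcg1, an exporter that loads cholesterol onto lipoprotein particles, fell with passage in both genotypes. It read 8.63, 15.2 and 5.42 CPM at Atm+/+ passage 2, 1.09, 1.66 and 1.98 at Atm+/+ passage 8, 7.64, 9.05 and 9.98 at Atm-/- passage 2, 2.56, 0.578 and 0 at Atm-/- passage 8 and 7.46, 7.15 and 5.65 after irradiation. All 6 passage 8 libraries were below all 9 others. It fell by 2.63 ± 0.72 in Atm+/+ (adjusted p = 0.0187, edgeR; 0.0539 with the block; 0.06 to 0.0812 without any 1 Atm+/+ passage 8 library) and by 2.96 ± 0.74 in Atm-/- (adjusted p = 0.016). The Atm-/- value was -2.45 in 13 libraries and -4.58 without replicate 1 of Atm-/- passage 8, and its adjusted p was 0.0533 without replicate 3 of Atm-/- passage 2 and 0.192 when only the groups compared were fitted. Against passage 8, irradiated cells read 2.10 ± 0.71 (adjusted p = 0.108) in 15 libraries and 2.12 ± 0.39 (adjusted p = 0.00187) in 13.

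Macrophage markers moved alongside. Summed over 21 genes they reached 2462 to 4239 CPM at Atm+/+ passage 2, 1108 to 1789.9 at Atm-/- passage 2 and 1496 to 2696 after irradiation, but 68.3 to 108 at Atm+/+ passage 8 and 39.1 to 60.7 at Atm-/- passage 8. All 21 fell with passage in both genotypes, where 13.5% of all genes fell in Atm+/+ and 8.25% in Atm-/-. In irradiated cells 20 of 21 were higher than in passage 8 cells (all genes, 4.30%), and 21 over 13 libraries (all genes, 13.2%). Adgre1, a defining marker, read 2.95 to 18.5 in the passage 2 and irradiated libraries, at most 0.137 at Atm+/+ passage 8 and 0 in all 3 Atm-/- passage 8 libraries. Abcg1 followed the same split of groups, while Nr1h3 did not, being as low after irradiation as at passage 8. The part of macrophage RNA in the Abcg1, Nr1h3 and Abca1 results was not tested. In bulk RNA, fewer cells of a type and less RNA per cell cannot be told apart.

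Abca1, the exporter to lipid-poor apolipoprotein, read 54.4, 48.7 and 35.3 CPM at Atm+/+ passage 2, 32.9, 32.6 and 30.6 at passage 8, 31.0, 39.2 and 35.6 after irradiation, 31.8, 46.0 and 49.0 at Atm-/- passage 2 and 17.0, 26.1 and 38.8 at Atm-/- passage 8. Nothing passed in 15 libraries. In 13 it fell with passage by 0.66 ± 0.19 in Atm+/+ (adjusted p = 0.0131, edgeR) and by 0.95 ± 0.20 in Atm-/- (adjusted p = 0.00286). Mylip, the ubiquitin ligase for lipoprotein receptors, read 6.11, 8.79 and 0 at Atm+/+ passage 2, 7.77 to 8.95 at passage 8, 6.09 to 7.91 after irradiation, 7.59 to 9.66 at Atm-/- passage 2 and 4.68, 6.49 and 0 at Atm-/- passage 8. It passed in 1 comparison of the 13 libraries, falling by 0.65 ± 0.20 with passage in Atm-/- (adjusted p = 0.0274).

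**Figure D4:**
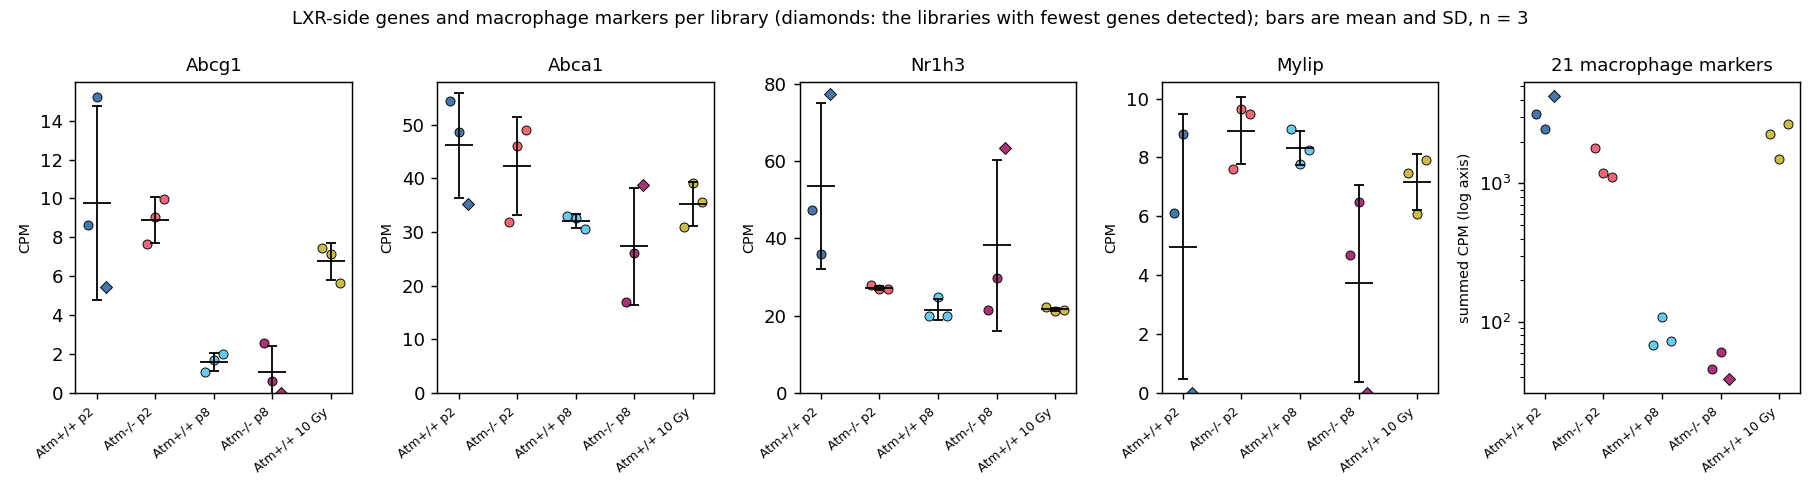
CPM of Abcg1, Abca1, Nr1h3 and Mylip, and the summed CPM of 21 macrophage markers on a log axis, by group; points are libraries, diamonds the pair with few genes detected, and bars (not drawn for the sum) the mean and SD of 3. Abcg1 is at or below 2.56 CPM in all passage 8 libraries, where the marker sum is also lowest.

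Setting the SREBP-driven genes (18 enzymes, Insig1 and Stard4) beside the LXR-driven genes (Abca1, Abcg1, Mylip and Srebf1, which SREBP also drives) showed where each arm moved. For irradiation against passage 2, 12 of 20 SREBP-driven genes fell and 1 rose (median -0.93), where 16.5% of all genes fell and 11.0% rose. None of the 4 LXR-driven genes passed (median -0.34), but 4 genes are too few to set a count against that share. The SE was 0.67 for Abcg1 and 1.05 for Mylip. On log2(TPM + 1) the LXR-driven median was 0.09, where all genes were at 0.32. Over 13 libraries 18 of 20 fell and 1 rose, and 1 of 4 LXR-driven genes fell (all genes, 23.3% fell and 22.9% rose). Against passage 8, 4 of 20 SREBP-driven genes fell (all genes, 2.59%) and no LXR-driven gene passed, with medians of -0.39 and 0.02. Over 13 libraries 9 SREBP-driven genes fell and Abcg1 rose (all genes, 12.3% fell and 13.2% rose). With passage in Atm+/+ 9 of 20 SREBP-driven genes fell and 1 rose (median -0.53), and of the LXR-driven genes Abcg1 fell (median -0.35). Among all genes 13.5% fell and 9.80% rose. Over 13 libraries 10 SREBP-driven and 2 LXR-driven genes fell (all genes, 20.3%). With passage in Atm-/- no SREBP-driven gene fell and Insig1 rose (median -0.04), while Abcg1 fell (median -0.92). Among all genes 8.25% fell and 4.76% rose. Over 13 libraries 3 SREBP-driven genes fell and 2 rose, and 3 of 4 LXR-driven genes fell (all genes, 14.4% fell and 12.8% rose). For genotype the medians were -0.47 and -0.13 (0.12 for the latter on log2(TPM + 1)) at passage 2, and -0.09 and -0.35 at passage 8. Per library, the SREBP-driven median of centred log2 CPM ran from -0.40 to -0.38 in irradiated cells and from 0.38 to 0.63 at Atm+/+ passage 2. The LXR-driven median ran from -0.04 to 0.01 and from -0.03 to 0.38 in the same groups. Its lowest value, -3.35, was the Atm-/- passage 8 library in which Abcg1 and Mylip had no read.

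**Figure D5:**
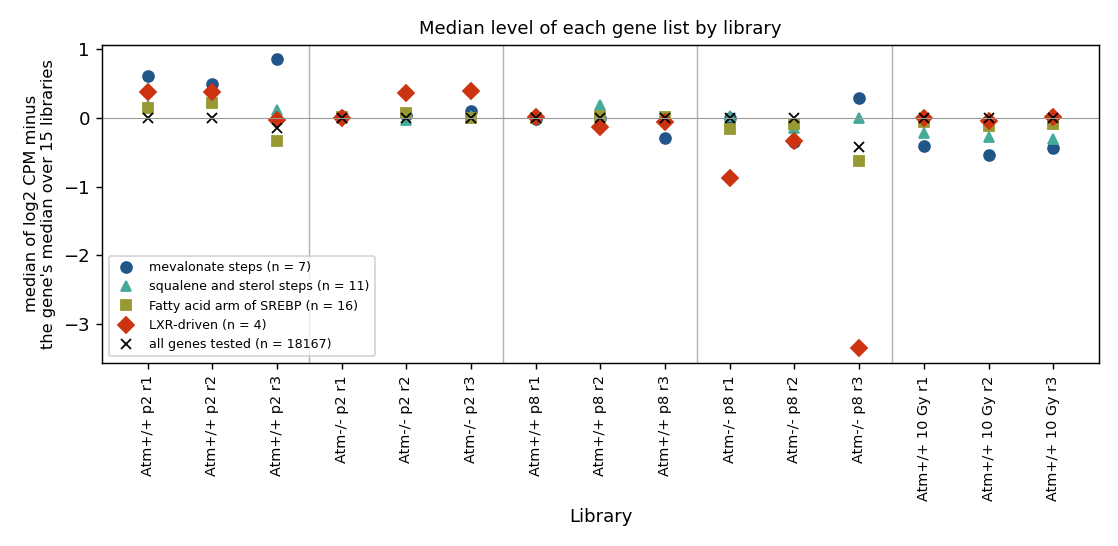
Median over each gene list (vertical axis, log2 CPM minus each gene's median over 15 libraries) for each library (horizontal axis, by group). The mevalonate genes lie at 0.50 to 0.86 in Atm+/+ passage 2 cells and at -0.53 to -0.41 in irradiated cells, while the LXR-driven genes are near 0 in irradiated cells.

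The fatty acid arm of SREBP was a further list of 16 genes. With irradiation against passage 2, 4 fell (all genes, 16.5%), namely Acaca (-0.98 ± 0.14, adjusted p = 0.000348, edgeR), Pcyt2 (-1.15), Elovl6 (-1.54) and Fasn (-1.03), which act in malonyl-CoA synthesis, phospholipid synthesis, chain elongation and fatty acid synthesis. Gpam, named after its value was seen, rose by 1.77. Over 13 libraries 7 fell and 2 rose. The list's median was -0.16 (0.30 on log2(TPM + 1), where all genes were at 0.32). With passage in Atm+/+ Acaca, Pcyt2, Elovl6 and Lpin1 fell and none rose (all genes, 13.5% and 9.80%), and over 13 libraries 6 fell and 2 rose. With passage in Atm-/- the desaturases Scd1 (-1.49 ± 0.21, adjusted p = 0.000371) and Scd2 (-0.92) and Elovl6 (-1.0) fell (all genes, 8.25%), and over 13 libraries 6 fell and 2 rose. Against passage 8, irradiated cells had Lpin1, a phosphatidate phosphatase, higher by 1.27 ± 0.16 (adjusted p = 0.000227), where 4.30% of all genes rose. No gene of the list was lower in 15 libraries (2.59% of all genes), and 6 were lower in 13 (12.3%).

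Among 14 uptake and transport genes, Vldlr, a lipoprotein receptor, rose the most. It read 19.8 to 33.9 CPM at Atm+/+ passage 2, 52.6 to 58.9 at Atm-/- passage 2, 112 to 123 after irradiation, 121 to 147 at Atm+/+ passage 8 and 94.1 to 120.4 at Atm-/- passage 8. Vldlr rose by 2.36 ± 0.18 with passage in Atm+/+ (adjusted p = 2.17e-06, edgeR), by 2.16 ± 0.18 with irradiation and by 1.05 ± 0.17 with Atm loss at passage 2. Npc1, which exports cholesterol from lysosomes, rose by 1.13 ± 0.28 with irradiation, and Npc2 rose by 0.65 ± 0.16 with passage in Atm-/-. Of 4 oxysterol enzymes, Cyp7b1 fell by 2.04 ± 0.35 and Cyp27a1 rose by 0.99 ± 0.30 with irradiation, and Ch25h rose by 1.61 ± 0.27 with passage in Atm+/+. Of 7 other LXR partners and targets, Rxra fell and Ncor1 rose with irradiation, by 0.68 and 0.46 (-0.34 and 0.42 over 13 libraries). In 15 libraries 11.0% of all genes rose and 16.5% fell with irradiation. The share that rose was 9.80% with passage in Atm+/+, 4.76% with passage in Atm-/- and 0.628% with Atm loss at passage 2. Over 13 libraries 2 of the 14 uptake genes rose and 1 fell with irradiation, where 22.9% and 23.3% of all genes did. In the same fit 1 oxysterol enzyme rose and 2 fell, and 2 LXR partners rose and 2 fell. The uptake counts for irradiation over 13 libraries were thus not above the shares of all genes. Between genotypes in 15 libraries, 1 of the 14 was higher in Atm-/- at passage 2 (all genes, 0.628%). At passage 8, 2 were higher and 1 was lower (all genes, 5.03% and 4.29%). Among proteases, turnover factors and side-branch genes, Erlin2 rose by 0.39 and Mbtps1 fell by 0.38 with irradiation (0.37 and -0.18 over 13 libraries, the latter with an adjusted p of 0.0799, edgeR).

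Proliferation genes also fell. Of 15, 13 fell with irradiation against passage 2 (median -1.94), 6 with passage in Atm+/+ (median -0.54), 3 with passage in Atm-/- (median -0.79) and 5 with irradiation against passage 8 (median -1.43), where 16.5%, 13.5%, 8.25% and 2.59% of all genes fell. Over 13 libraries the counts were 14, 13, 6 and 13, where 23.3%, 20.3%, 14.4% and 12.3% of all genes fell. Their summed level was 347 to 528 CPM at Atm+/+ passage 2, 252 to 301 at Atm+/+ passage 8, 253 to 392 at Atm-/- passage 8 and 127 to 146 after irradiation. Of 7 endothelial markers, 7 fell with passage in each genotype and 4 with irradiation against passage 2 (7 over 13 libraries). The shares of all genes that fell were 13.5% and 8.25% with passage in Atm+/+ and Atm-/-. With irradiation the share was 16.5% (23.3% over 13 libraries). The part of proliferation or endothelial genes in the enzyme results was not tested.

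The strand setting of the counting is not known here, so reads of overlapping genes cannot be separated. Of the 30 genes, 10 have an exon overlapping an exon of another annotated gene (Hmgcs1, Idi1, Fdps, Fdft1, Lss, Cyp51, Tm7sf2, Scap, Srebf1 and Nr1h3), and Nr1h2 has a pseudogene, so their values are less certain.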

How the data were processed

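RNA from 15 cultures was sequenced by the authors (TruSeq, per the labels' protocols). The deposited counts are whole reads per gene; per the submitters' processing notes SAMtools 1.3.1, featureCounts and mm10 were used. No source used here names the aligner, annotation or strand setting. The deposited TPM values, per-length values made by the authors, served for levels between genes and as an alternative scale. Gene IDs were named from GENCODE M21 (48058 of 48440 matched). No column of per-sample values was left unmapped.

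Counts were filtered by group (filterByExpr), TMM-normalised and fitted with edgeR 4.0.16 (R 4.3.3; quasi-likelihood, robust), 1 mean per group, Benjamini-Hochberg over all genes, threshold 0.05. The fit was tested on simulated data. Alternatives were DESeq2 1.42.0, its size factors, no filter or a strict filter (mean count of 50 or more and 1 CPM), limma 3.58.1 on log2(TPM + 1) or log2(TPM + 0.1) with TPM of 0.5 or more in 3 libraries, only the groups compared, a replicate block, the 13 libraries and leaving out each library. The replicate block was the number within genotype, except in the genotype comparisons, where it was the number across both genotypes. Centred log2 CPM used a prior count of 2. All 30 members were accounted for. Role genes and members passing any comparison were given per library or as a range over libraries. At most 4 genes of other lists were named per comparison, by lowest p. Members and lists were chosen with earlier results of these data known. Library totals of 13645592 to 39210772 counts set the precision of low genes.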

Additional observations from a re-analysis of the deposited data

Results flagged for a closer look

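For 3 genes the effect of passage differed between the genotypes by a test of the difference itself. The passage effect in Atm-/- minus that in Atm+/+ was 1.00 (log2) for Insig1, -0.95 for Sc5d and 1.79 for Nr1h3. Over 13 libraries the same differences were 0.88, -0.72 and 0.86, and all 3 passed there. None of the 3 passed with the strain number as a block (adjusted p = 0.0719, 0.0826 and 0.114, edgeR).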

How the results depend on the processing

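Of 43 calls of members over 7 comparisons, 17 held under all 24 alternatives per comparison and none changed sign; 43 held in the 13 libraries, 43 in DESeq2, 33 with the replicate block and 29 when only the groups compared were fitted. The cause of the changes was not tested. Members passing moved from 0 to 3 (DESeq2), 1 (strict filter) and 6 (13 libraries) for genotype at passage 2. For genotype at passage 8 they moved from 3 to 1 (log2(TPM + 0.1)), 0 (only the groups compared) and 7 (13 libraries). For passage in Atm-/- they moved from 3 to 1 (only the groups compared) and 10 (13 libraries), and for irradiation against passage 2 from 15 to 24 (13 libraries). For irradiation against passage 8 they moved from 5 to 3 (no filter), 2 (log2(TPM + 1)), 1 (log2(TPM + 0.1)), 15 (only the groups compared), 3 (replicate block) and 12 (13 libraries). For the difference of passage effects they moved from 3 to 9 (DESeq2), 5 (strict filter), 1 (log2(TPM + 1)), 0 (log2(TPM + 0.1)), 0 (only the groups compared), 0 (replicate block) and 6 (13 libraries).

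Leaving out 1 library gave 0 to 7 members for genotype at passage 2, 0 to 5 for genotype at passage 8, 7 to 15 for passage in Atm+/+, 1 to 7 for passage in Atm-/-, 11 to 18 for irradiation against passage 2, 3 to 7 for irradiation against passage 8 and 0 to 10 for the difference. Same-numbered libraries of different groups did not deviate together (correlations -0.20 to 0.22, and -0.20 to 0.19 within genotype). With 3 libraries per group, and the pair with few genes detected among them, this cannot show that the numbers do not pair. The labels state no pairing, so the numbers are treated as names and the replicate block as an alternative. Atm had 27 to 85 reads per library, which limits its precision.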
